A study of Mus musculus with 2 samples.

Results

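The 10 genes described here are Batf, Batf3, Jun, Junb, Jund, Fos, Fosb, Fosl1, Fosl2 and Maf, which were chosen by name from 21631 protein-coding genes. They encode basic leucine zipper (bZIP) proteins. Binding of the transcription factor IRF4 at them was read from ChIP-seq, the sequencing of DNA recovered with an antibody to IRF4, in the line CH12.LX. This is an immortalized B-cell lymphoma line from a female mouse of strain B10.H-2aH-4bp/Wts. The 2 samples are biological replicates of 1 group with no treatment named, so no condition could be compared. The labels give them separate biosample records but do not say how the cultures were separated, and differences between them may be technical. All results are peaks of a single factor in a single line, which cannot show whether the genes are transcribed there or check that the cells are B cells. Binding near a gene does not assign the site to that gene.

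BATF, JUN and FOS proteins make up the AP-1 family. They bind DNA as pairs held together by their leucine zippers: a JUN protein can pair with itself, with a FOS protein or with a BATF protein. BATF and BATF3 lack the activating domains of FOS and, paired with a JUN protein, bring IRF4 to AP-1-IRF composite elements (AICE) in immune cells. MAF pairs through the same kind of zipper, reads a longer site that contains an AP-1 core, and is known for its role in Il10 expression in lymphocytes. The values below show where IRF4 itself lay at the genes of these families.

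A gene's window was its RefSeq body with 10 kb added to either end. Summits, the positions of highest signal within peaks, came from the optimal list of 44058 peaks that the depositors made from both replicates with the irreproducible discovery rate (IDR), which keeps peaks that rank alike in repeated measurements (mm10). A second, conservative IDR list held 35879 peaks, and relaxed lists held background as well. The pooled signal is the depositors' value for a peak over both replicates, on a scale they did not state. Replicate signals are those of the nearest summit within 100 bp in each replicate's own relaxed list. No read numbers were at hand, and the sequencing depth is therefore not known. Positions are on mm10 unless mm9 is named.

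IRF4 summits were found at 9 of the 10 genes, 42 summits in all, and Maf had none. A summit was present in the same window at 62.3% of all protein-coding genes, and at 53.0% of the 12327 genes no longer than Batf, the longest of the 10 at 22368 bp. Junb had 10 summits, Batf3 9, Batf and Jund 6 each, Fosb 4, Fosl2 3, Jun 2, and Fos and Fosl1 1 each. Among the genes of at most that length, 0.503% had at least as many as Junb, 0.795% as many as Batf3 and 3.56% as many as Batf or Jund. By contrast, 53.0% had at least as many as Fos or Fosl1.

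The order by strongest pooled signal was Batf (297.6), Junb (224.4), Batf3 (190.9), Fosl2 (175.9), Jund (133.0), Fosl1 (64.3), Jun (56.3), Fosb (48.2) and Fos (36.6). The first 5 had a summit within the strongest 25% of the optimal list, which began at a signal of 66.2, as did 26.7% of all protein-coding genes and 18.7% of those of at most the length of Batf. Summit by summit the signals were near those of the whole list: 10 of the 42 (23.8%) were in its strongest 25%, and their median was 48.1 against 41.4 over all optimal summits. Batf3 and Junb had 3 summits each in that 25%, Batf 2, and Fosl2 and Jund 1 each. In each replicate Batf came first, but no error can be given for the pooled values themselves. Replicate 1 had 139 at Batf, 87.4 at Junb, 78.5 at Batf3, 74.6 at Fosl2 and 56.6 at Jund. Replicate 2 had 156, 137, 114, 103 and 75.5 in the same order. Both replicates thus ranked these 5 alike, while neighbours such as Batf3 and Fosl2 differed by less than the gap between the replicates at either.

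**Figure D1:**
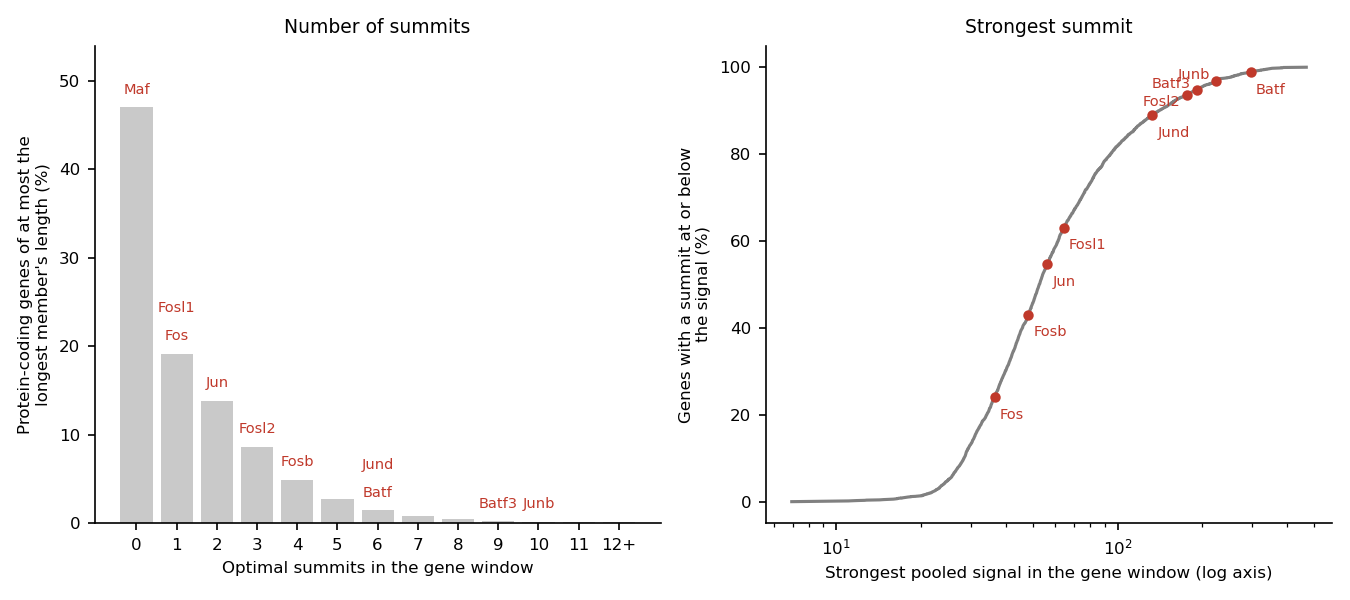
Left, the percent of protein-coding genes of at most 22368 bp (bars, y axis) by number of optimal summits in the gene window (x axis), with the 10 genes written above the bar of their number. Right, the cumulative percent of such genes with a summit (y axis) by their strongest pooled signal (x axis, log), with the 9 genes that have one as points: Fos at 36.6 is lowest and Batf at 297.6 highest.

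The sequences under the strongest summits are shown because they are the highest sites at the 5 genes with the strongest binding. They were read from the mm9 genome at the summits of the depositors' separate mm9 list, since no mm10 genome was used here. Each is the summit with 50 bases on either side, written along the plus strand. Capitals mark the ETS core GGAA and the IRF core GAAA on either strand, where the minus strand reads TTCC and TTTC. The Batf site was at chr12:87051740-87051840, Batf3 at chr1:192938962-192939062, Junb at chr8:87509836-87509936, Fosl2 at chr5:32442222-32442322 and Jund at chr8:73219470-73219570.

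Batf, past the gene end: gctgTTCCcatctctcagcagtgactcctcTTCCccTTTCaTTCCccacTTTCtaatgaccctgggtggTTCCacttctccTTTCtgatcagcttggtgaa
Batf3, past the gene end: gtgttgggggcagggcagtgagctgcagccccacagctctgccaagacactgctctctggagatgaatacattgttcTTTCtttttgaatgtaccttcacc
Junb, upstream: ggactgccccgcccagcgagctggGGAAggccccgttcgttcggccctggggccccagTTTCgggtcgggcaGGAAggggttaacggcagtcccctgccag
Fosl2, in an intron: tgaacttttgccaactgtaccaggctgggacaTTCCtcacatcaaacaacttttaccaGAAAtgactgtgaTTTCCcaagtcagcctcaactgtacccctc
Jund, upstream: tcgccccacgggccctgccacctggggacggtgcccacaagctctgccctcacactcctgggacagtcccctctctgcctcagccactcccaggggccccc

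The Batf window held 4 ETS cores and 3 IRF cores, all reading on the minus strand as TTCC or TTTC. The Fosl2 window held 2 of each, the Junb window 2 ETS cores and 1 IRF core, the Batf3 window a single IRF core and the Jund window neither. The G and C content was 72.3% in the Junb and Jund windows, 51.5% at Batf3, 50.5% at Batf and 45.5% at Fosl2. In none of the 5 did the cores form a composite element in a form that was searched.

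Few matches to the searched motifs were found at these sites, and several of the motifs were uncommon at all summits. Motifs were searched on both strands within 50 bp of the 32 mm9 summits in the windows of the 10 genes. The AP-1 site TGANTCA was at 0 of the 32. It was at 16.0% of all 27671 mm9 summits and at 11.6% of those at genes of at most the length of Batf. The ETS-IRF composite element (EICE: GGAA, any 2 bases, GAAA) was at 0 of 32, against 8.68% over all summits and 7.15% at those genes. The AICE with adjoining sites (GAAA directly before the AP-1 site) was at 0 against 1.13%, and the AICE with a gap (TTTC, any 4 bases, the AP-1 site) at 0 against 1.12%. Both contain the AP-1 site by construction. The cyclic AMP response element TGACGTCA, which JUN proteins paired with ATF proteins bind, was at 0 against 0.611%. For both forms of AICE and for this element, shares this low make 0 of 32 uninformative. TGCTGA, part of the MAF recognition element, was at 2 of 32, both at Batf, against 9.49%. The tandem IRF element (ISRE: GAAA, any 2 bases, GAAA) was at 1 of 32, against 5.79% over all summits and 4.92% at genes of at most the length of Batf. For EICE and ISRE, too, such shares leave few matches to be found in 32 windows, so 0 and 1 say little.

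In all, 1 of the 32 windows (3.12%) held an EICE, an ISRE, either AICE or an AP-1 site. The share was 28.8% over all mm9 summits, 27.0% over summits in the windows of protein-coding genes and 22.2% over summits in the windows of genes of at most the length of Batf. In windows 300 bp to one side it was 5.23% over all summits. At the 10 genes 1 of the 32 side windows held such a match, as many as at the summits themselves. The windows at the 10 genes were richer in G and C, with a mean of 57.4% (SD 11.1, n = 32 summits) against 49.9% over all summits and 53.8% at the shorter genes, and the part of base composition in the lower share was not tested. Summits of 1 gene lie close together and are not independent. Of the single cores, GAAA was in 23 windows (71.9%), against 79.8% over all summits and 72.7% at the shorter genes. GGAA was in 19 (59.4%), against 78.1% and 79.0%. The absence of a match says only that these letters were not in the window.

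The 1 window with a match lay 1939 bp past the end of Junb and is shown for its ISRE. It was at chr8:87498822-87498922 (mm9), and capitals again mark GGAA and GAAA on either strand together with the whole ISRE, which reads on the minus strand.

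Junb, past the gene end: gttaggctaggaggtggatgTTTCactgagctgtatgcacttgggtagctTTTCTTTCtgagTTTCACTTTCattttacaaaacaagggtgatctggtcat

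Batf encodes the BATF protein, which IRF4 joins on AICE in T and B cells. The gene lies at chr12:85686720-85709087 on the plus strand. Its strongest summit lay 1762 bp past the gene end (chromosome 12, peak 85710753 to 85711019), ranked 322 in the optimal list and had signals of 139 in replicate 1 and 156 in replicate 2. A group of 4 weaker summits lay toward the end of the gene body, 15984 to 19075 bp from the start, with pooled signals of 49.8, 72.5, 36.0 and 46.1. The mm9 list had 2 summits near there, 16961 and 19135 bp from the start, both in an intron. The last of the 4 was uneven between replicates (8.72 and 38.2), and its exact interval was not in the conservative list. The remaining summit, 6733 bp upstream, had a pooled signal of 45.5 and replicate signals of 21.5 and 30.7. No optimal summit lay within 1 kb of the Batf start. The relaxed pooled list had a peak there with a signal of 26.8, ranked 39882, and the mm9 list had a summit 10 bp before the annotated start.

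Batf3 encodes a BATF relative needed by cross-presenting dendritic cells, and lies at chr1:191098414-191108943 on the plus strand. Its 9 summits were spread on both sides of the gene and all 9 were in the conservative list too. The strongest lay 6189 bp past the gene end (chromosome 1, peak 191114962 to 191115301, signals 78.5 and 114), and the next lay 1701 bp inside the gene (peak 191099945 to 191100284, pooled signal 115.5, replicate 2 signal 70.5, log2 ratio of replicate 2 to replicate 1 0.50), where the mm9 counterpart was intronic. A summit 2329 bp past the end had a pooled signal of 73.0 and a replicate 1 signal of 41.4, and no replicate 2 summit was matched to it. Its neighbour 200 bp away had 13.2 and 33.4. The summits nearest the start, 968 bp before and 910 bp after it, had pooled signals of 37.5 and 32.6. The relative order of the replicates differed at the first of them, with 21.6 in replicate 1 and 16.8 in replicate 2. The 2 summits about 3 kb upstream, 209 bp apart, had 49.9 and 12.6.

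**Figure D2:**
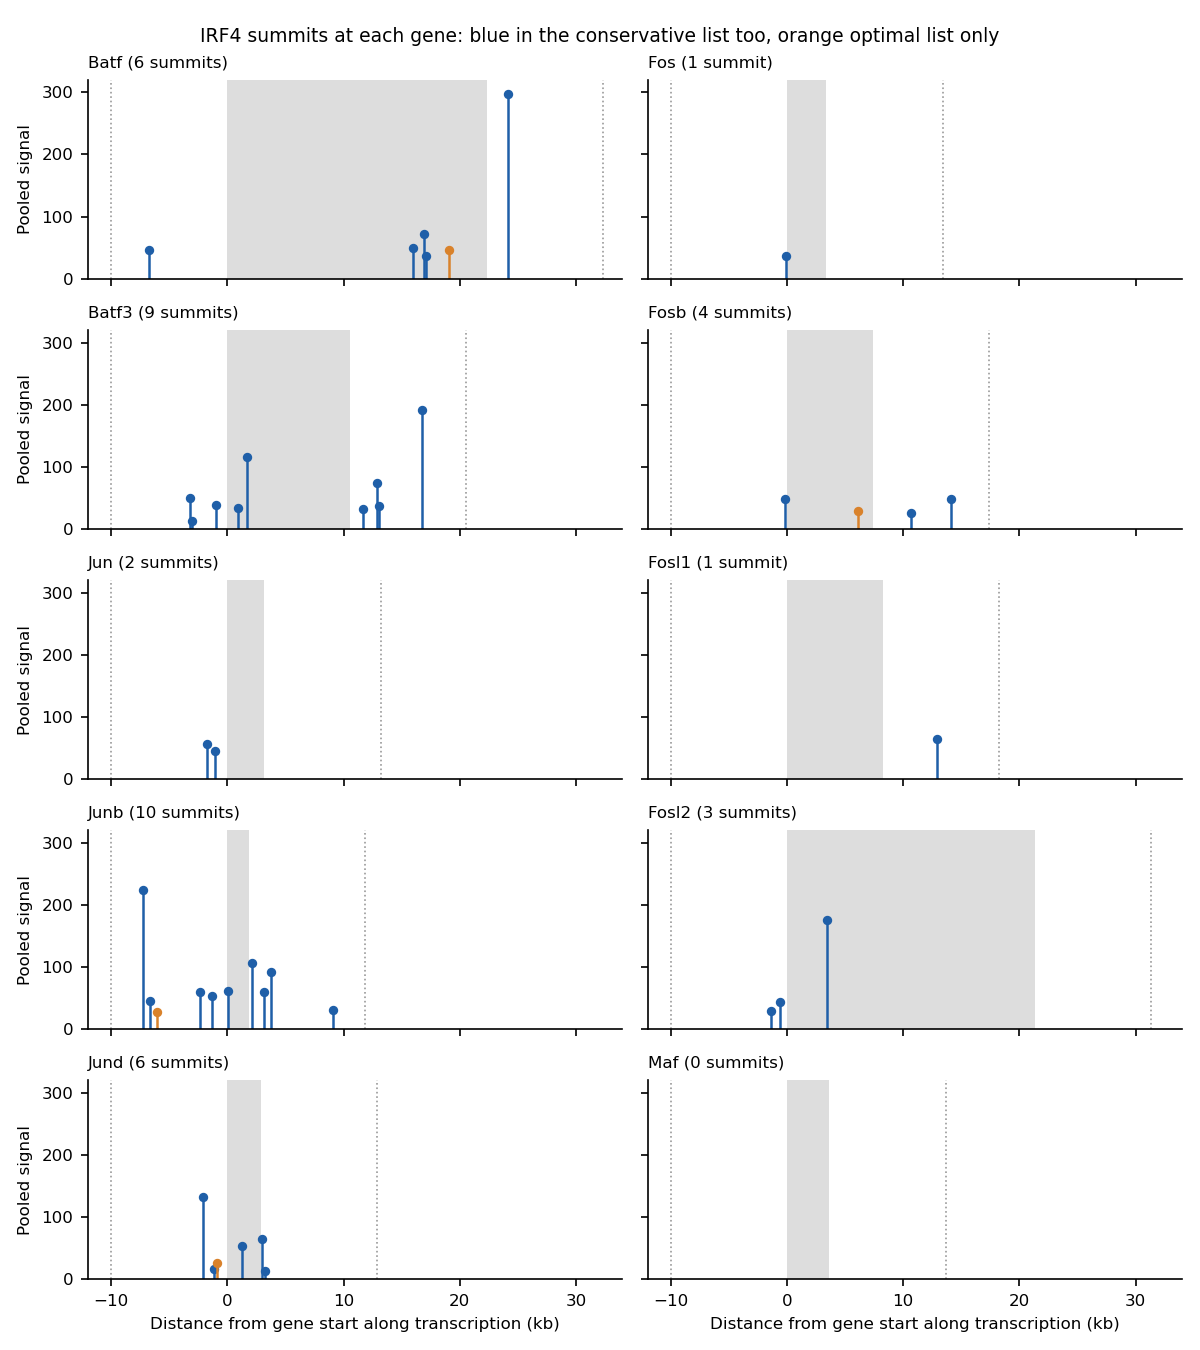
Optimal summits at the 10 genes. Each stem is a summit, placed by its distance from the gene start along the direction of transcription (x axis, kb) with its pooled signal as height (y axis). Grey is the gene body, dotted lines bound the window, and orange stems are peaks whose exact interval is not in the conservative list. The tallest stems stand past the end of Batf and Batf3, upstream of Junb and Jund and inside Fosl2.

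Junb encodes a JUN protein that pairs with BATF in lymphocytes, and had the most summits of the 10 genes in the optimal list with 10 kb ends. This lead depended on the list and window. With 5 kb ends Junb had 6 against 8 at Batf3. In the conservative list and in the strongest peaks of replicate 1 alone it had 9 against 10. In replicate 2 alone Junb had 12 against 9, and in the mm9 list 8 against 6. Junb lies at chr8:84976909-84978748 on the minus strand. Its gene is only 1840 bp long, so 9 of the 10 summits lay outside it, 5 upstream and 4 past its end. The strongest lay 7226 bp upstream (chromosome 8, peak 84985918 to 84986053, signals 87.4 and 137), and 2802 bp from the start of Hook2, a gene for a microtubule adaptor, so both genes have it near. Past the gene end, summits at 321, 1323 and 1936 bp had pooled signals of 106.7, 60.3 and 91.2. The first of these had 28.4 in replicate 1 and 75.8 in replicate 2, while at the other two the replicates were close (29.4 and 33.6, 43.3 and 45.6). A summit 55 bp inside the gene start had a pooled signal of 60.6, the highest among the 7 summits that lay within 1 kb of the start of one of the 10 genes, and signals of 28.0 and 39.5. The farthest summit past the end (30.1) lay inside Prdx2, a peroxiredoxin gene, 49 bp from its start. The summit 6059 bp upstream had 5.1 in replicate 1 and 21.3 in replicate 2, and its exact interval was not in the conservative list.

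Jund encodes a JUN protein that many cell types make without stimulation, at chr8:70697739-70700616 on the plus strand. The strongest of its 6 summits lay 2122 bp upstream (chromosome 8, peak 70695447 to 70695786) with signals of 56.6 and 75.5. A summit 122 bp past the gene end had a pooled signal of 65.0 but 18.0 in replicate 1 against 51.1 in replicate 2. A summit 1233 bp inside the gene had 53.4. The other summits were among the weakest at these genes, with 16.3, 25.3 and 12.4. The first had no matched summit in replicate 1, the second had the lowest ratio of replicate 2 to replicate 1 (20.7 and 7.51), and the third had no match in either. Both summits past the end lay within 1 kb of the start of Iqcn, at 583 and 384 bp.

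Jun, at chr4:95049036-95052222 on the minus strand, encodes the founding JUN protein. Its 2 summits lay upstream, at 1074 and 1720 bp (chromosome 4, peaks 95053126 to 95053465 and 95053772 to 95054111), inside the noncoding gene Junos. The nearer had signals of 21.5 and 23.0 and the farther 26.7 and 32.0, so the replicates were close at both. Neither was in the strongest 25% of the list. No optimal summit lay within 1 kb of the Jun start, where the relaxed pooled list had a peak of 21.9, ranked 51075.

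The FOS genes had fewer summits than Batf, Batf3, Junb and Jund, with 9 over 4 genes, and Fosl2 alone had a strong one. FOSL2 (FRA-2) is a FOS relative without the activating domain of FOS, and its gene lies at chr5:32136472-32157840 on the plus strand. The strong summit lay 3434 bp inside Fosl2 (chromosome 5, peak 32139736 to 32140075), in an intron on mm9, with signals of 74.6 and 103. Upstream of the start, summits at 578 and 1417 bp had pooled signals of 43.0 and 29.1. Replicate signals there were 16.8 and 24.2 at the nearer and 15.7 and 17.1 at the farther, with no counterpart of either in the mm9 list.

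Fos (chr12:85473890-85477274, plus strand), the immediate early gene switched on within minutes of many stimuli, had a single summit, 91 bp before its start (chromosome 12, peak 85473629 to 85473968). Its pooled signal was 36.6, and the replicates were nearly equal at 17.3 and 18.7. A strongest summit of at least this height was found at 49.5% of all protein-coding genes. The mm9 list had no summit in the window of Fos. The summit with 50 bases on either side, chr12:85473749-85473849, were read from the RefSeq promoter of GRCm38.p6 and are shown because this is the only site at Fos and lies in its promoter. Capitals mark GGAA and GAAA on either strand and TGACG, part of the cyclic AMP response element.

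Fos, promoter: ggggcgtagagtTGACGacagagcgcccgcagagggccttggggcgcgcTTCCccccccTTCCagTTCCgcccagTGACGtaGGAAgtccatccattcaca

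The Fos window held 4 ETS cores, no IRF core and 2 copies of TGACG, whose first bases lay 129 and 66 bp upstream of the start. TGACG on either strand was in 20.9% of all RefSeq promoter windows of 300 bases, which are longer than the Fos window. In windows of 50 bases on either side of a summit, it was at 7.08% of all mm9 summits. At genes of at most the length of Batf the share was 10.1%. Of the 8 genes with a RefSeq promoter (Fosl1 and Maf were not matched), an ISRE was found in the 250 bases before the start of Fosl2, at position -221 relative to the start, with no optimal peak overlapping the promoter. In the other promoters no EICE, ISRE, AICE, AP-1 site in the form TGANTCA or full cyclic AMP response element was found. The promoter window of Fosb reached into the gene body and left out the summit 215 bp before the start. An AP-1 site was in 7.85% of all promoter windows, an ISRE in 3.46%, an EICE in 2.73% and a full cyclic AMP response element in 1.8%. The AICE was in 0.126% in its adjoining form and 0.12% in its gapped form. Shares this low make an absence from so few promoters uninformative.

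Fosb (chr7:19302696-19310118, minus strand), an immediate early relative of Fos, had 4 summits of ordinary height. The one 215 bp before the start (chromosome 7, peak 19310163 to 19310502) had 28.5 in replicate 1 and 20.8 in replicate 2, one of 3 summits at these genes where replicate 1 was higher. The summit 6731 bp past the gene end (48.2) lay in Rtn2, a reticulon gene, and had 14.4 and 32.7. The summit 3255 bp past the end (26.1) lay in the noncoding gene Gm26802. The one in the gene body (28.4) had no match in replicate 1, and its exact interval was not in the conservative list. Fosl1 (chr19:5447698-5455938, plus strand), which encodes FRA-1, had 1 summit, 4654 bp past its end (chromosome 19, peak 5460422 to 5460761, pooled signal 64.3). That summit lay 6 bp from the start of Fibp, a gene for a growth factor binding protein. It had 47.4 in replicate 2 and no matched summit in replicate 1. With summits within 1 kb of another gene's start left out, a choice made after the values were seen, 8 of the 10 genes had a summit and Fosl1 had none. No share over all genes was taken under that choice.

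Maf (chr8:115703253-115706894, minus strand) had no optimal summit in its window and none within 100 kb of either end. A summit was present within 100 kb of 83.0% of protein-coding genes. The nearest optimal summits lay 288997 bp past the gene end (chromosome 8, peak 115414086 to 115414425, pooled signal 73.1) and 774176 bp upstream (peak 116480900 to 116481239, 24.1), which leaves 1066813 bp around Maf without one. The relaxed pooled list, whose 300000 peaks include background, had 1 peak in the window of Maf, with a signal of 7.31 and rank 266982. The relaxed lists of the single replicates had none. The next lowest count in the relaxed pooled list was 9, at Fos, and the highest was 32, at Batf. The mm9 list had no summit at Maf either.

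A summit within 1 kb of the start was found at 6 of the 10 genes (Batf3, Junb, Jund, Fos, Fosb and Fosl2), against 31.9% of the 20923 protein-coding genes with a known strand. Within 500 bp it was 3 (Junb, Fos and Fosb), for which no share over all genes was taken. These were not the strongest sites of their genes except at Fos, which had no other, although at Fosb the 47.9 near the start was close to the 48.2 past the end. Of the 42 summits, 18 were upstream, 10 in gene bodies and 14 past gene ends. Of the 9 strongest summits per gene, 4 lay past the gene end, at Batf, Batf3, Fosb and Fosl1. The same counts by place were not taken over all genes. In 5 places 2 summits lay within 340 bp of each other, so the 42 summits form 37 separate sites by that distance.

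The replicates gave most of the same sites. Of the 42 summits, 34 (81.0%) had a matched summit in both replicates, against 85.4% of all optimal summits, 5 had none in replicate 1 and 4 none in replicate 2, including 1 with neither. At those 34, replicate 2 exceeded replicate 1 by a median log2 ratio of 0.52 (SD 0.69, n = 34), close to the 0.53 (SD 0.66) over 37635 matched optimal summits. It ran from -1.46 at Jund to 2.13 at Batf. Replicate 2 was higher at 31 of the 34 summits and at 31179 of the 37635 over all. At the strongest summits of Batf, Junb, Batf3, Fosl2 and Jund the ratios were 0.17, 0.65, 0.54, 0.47 and 0.41, so the most uneven summits were not among the strongest. Of the 42 summits 38 (90.5%) were the same intervals in the conservative list, as were 72.3% of all optimal peaks.

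**Figure D3:**
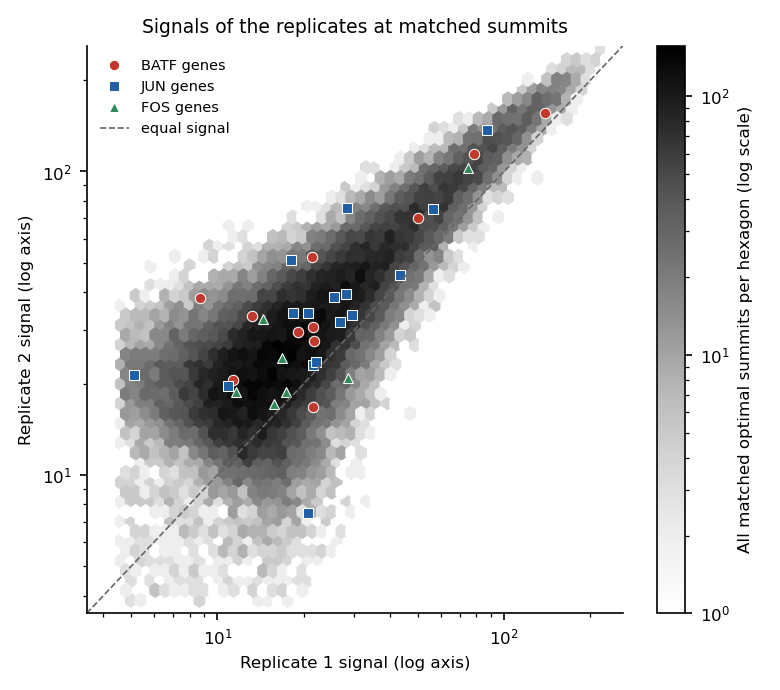
Signal in replicate 1 (x axis, log) and replicate 2 (y axis, log) at the 34 matched summits of the BATF, JUN and FOS genes, over all 37635 matched optimal summits (grey hexagons). The coloured points lie mostly above the dashed line of equal signal, as the grey cloud does.

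Fos and Batf lie on chromosome 12 with Jdp2, the gene of a bZIP protein that pairs with JUN and represses AP-1 targets, between them. The stretch from the start of Fos to the end of Batf is 235198 bp, and no other protein-coding gene lies in it. It held 27 optimal summits with 10 kb added to either end, of which 21 lay between Fos and Batf. The strongest of these lay 5473 bp upstream of Jdp2 (peak 85593144 to 85593263, pooled signal 195.5, replicate signals 75.1 and 121), second only to the summit past the end of Batf. Inside Jdp2 there were 4 summits, the highest of 78.4 with 41.3 and 38.9 in the replicates. Between Fos and Jdp2 the highest other summit had 76.1 (28.9 and 51.4), 97639 bp from the start of Fos.

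**Figure D4:**
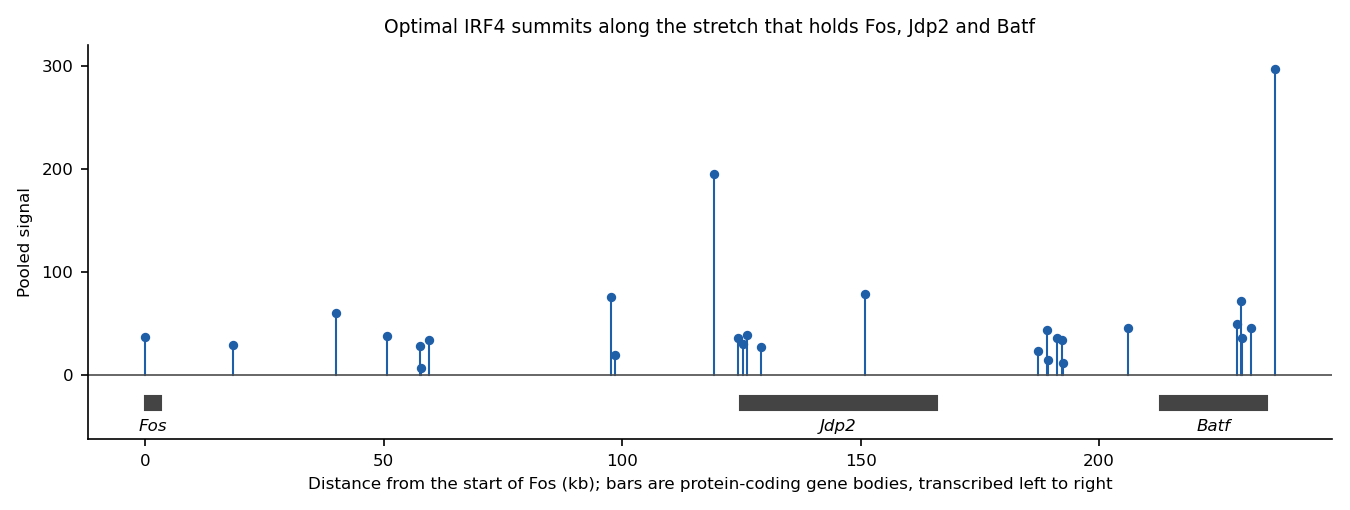
Pooled signal (y axis) of the 27 optimal summits along the stretch with Fos, Jdp2 and Batf, by distance from the start of Fos (x axis, kb). Dark bars are the gene bodies, transcribed from left to right; the tallest stems stand just past Batf (297.6) and just upstream of Jdp2 (195.5).

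Other strong sites lay within 100 kb of some of these genes. The share of all genes with a strong site in so wide a window was not taken, so this is not shown to be particular to them. Near Batf3, a summit 89125 bp past its end had a pooled signal of 299.9, above any in its own window. It was 14735 bp from the start of Atf3, another bZIP gene. Near Jund, a summit in Pik3r2, a subunit gene of PI3 kinase, had 202.8. Near Fosb, a summit 15927 bp upstream had 124.9, with the Fosb start the nearest. Near Fos a summit 26586 bp upstream had 86.0, and near Jun a summit 75967 bp upstream had 89.0. The strongest within 100 kb of Fosl1 had 73.8 and lay 1557 bp from the start of another gene. For Batf, Junb and Fosl2 the strongest summit of the wider window was that already described.

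The rest of the bZIP family around AP-1 was described with a list of 17 other genes. A summit was in the window of 15 of them (88.2%), against 62.3% of all protein-coding genes. In the strongest 25% of the list, 8 of the 17 had one, against 26.7% of all protein-coding genes. Of the 7 that are longer than Batf, all 7 had a summit and 4 had one in the strongest 25%, against 74.7% and 37.1% of the 9304 protein-coding genes longer than Batf. Bach2, whose repressor competes for MAF-type sites and holds back plasma cell formation, had 17 summits with the strongest at 324.0 (123 and 205 in the replicates), in a gene body of 347697 bp. Jdp2 followed with 195.5, then Nfe2, a blood factor that pairs with small MAF proteins (142.1), Nfe2l1 (111.5), Nfe2l2, the oxidative stress regulator NRF2 (94.1), Bach1 (93.6), the small MAF gene Maff (88.6) and the stress gene Atf3 (83.8). Mafa, a close relative of Maf, had 1 summit with 40.1, against none at Maf. Mafk and Nrl had none.

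Kinases of the cascades that lead to JUN and FOS proteins were described with a list of 15 genes. Of these, 14 (93.3%) had a summit, against the same 62.3% of all protein-coding genes, and 9 had one in the strongest 25%, against 26.7%. Of the 10 kinase genes longer than Batf, all 10 had a summit and 7 had one in the strongest 25%, against 74.7% and 37.1% of genes of that length. Mapk14, the gene of p38 alpha, had 310.4 (126 and 183), Map3k1, upstream of JUN kinases, 284.3 (123 and 158), and Map2k4, which activates them, 154.2 (65.9 and 90.0). Mapk8, the gene of the JUN kinase JNK1, had 29.8, and Mapk3 had no summit. The median length of the kinase genes was 59979 bp against 5533 bp for the 10 genes and 17329 bp over all protein-coding genes, and longer genes have longer windows.

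**Figure D5:**
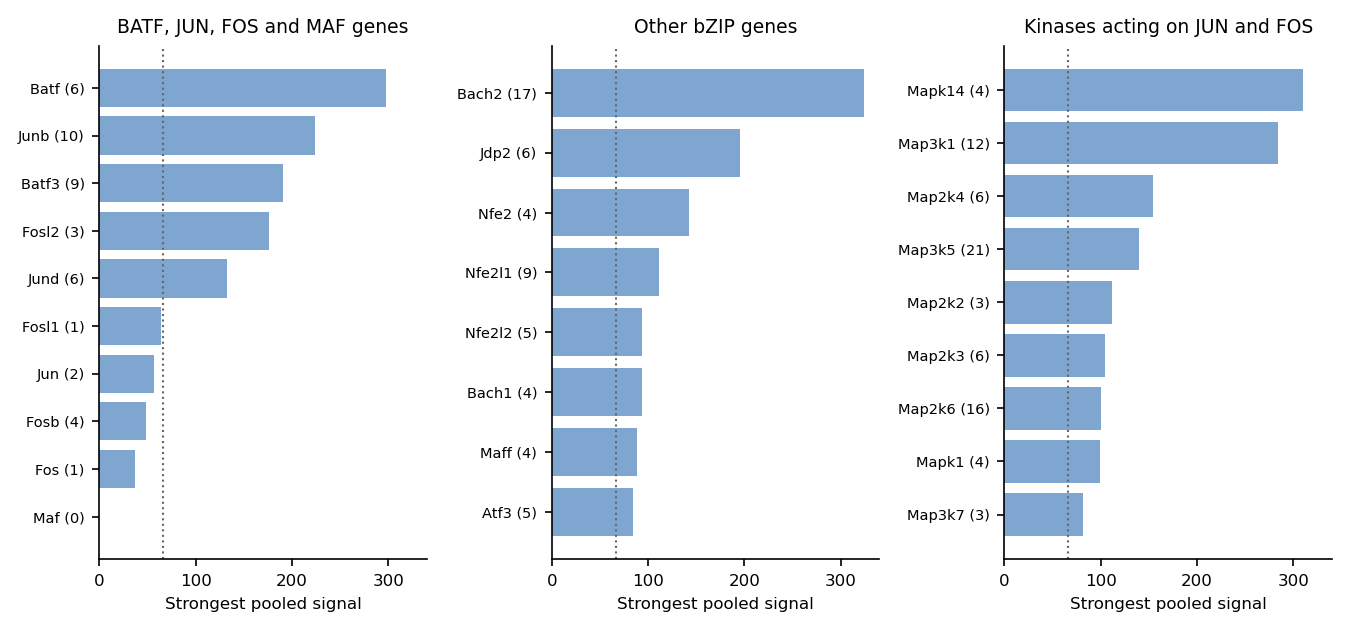
Strongest pooled signal in the gene window (x axis) for the 10 genes and for the 8 other bZIP genes and 9 kinase genes whose strongest summit was in the strongest 25% of the optimal list, with the number of summits in parentheses; the dotted line is the start of that 25%, 66.2. Batf, Bach2 and Mapk14 lead their lists, and Maf has no bar.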

How the data were processed

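IRF4 ChIP-seq peaks of 2 replicates of CH12.LX were deposited by the authors as 6 narrowPeak lists. Per the deposited descriptions, relaxed mm10 lists were made for each replicate (215095 and 300000 peaks) and for both pooled (300000), with 1 further input file. They were the inputs, again with 1 further file, of the optimal (44058) and conservative (35879) lists. The mm9 list (27671) was made from mm9 alignments of both. The signal value per peak was used as deposited, as a score of unstated scale. Peak caller, aligner and depth were not given in the sources used here.

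Gene bodies came from RefSeq (GRCm38.p6), strands from its promoter table or GENCODE, and mm9 sequence and exons from NCBIM37 and GENCODE M1. No coordinates were converted between builds. No test was run: the design has 1 group. The main counts stand beside their share over all genes or summits, while several others have no such share. The 10 genes, the lists and the windows were chosen with earlier results of these data known. Genes named outside the 10 are bZIP genes with a summit in the strongest 25% of the optimal list, the 3 strongest kinases, genes sharing a summit, and a few (Mafa, Mafk, Nrl, Mapk8, Mapk3, Hook2, Pik3r2) chosen after their values were seen, as were the sequences without a motif match. Python 3.11.15, numpy 2.4.6, pandas 2.3.3 and matplotlib 3.10.9 were used. Window counts, matching and motif search were tested on simulated data.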

Additional observations from a re-analysis of the deposited data

How the results depend on the processing

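The number of genes with a summit was 6 in gene bodies alone, 8 in the mm9 list and 9 with 5 kb or 100 kb ends, in the conservative list and in the 44058 strongest peaks of either replicate alone. Over all protein-coding genes the share was 83.0% with 100 kb ends and 57.4% in the conservative list. It was not taken for the other settings. The summit count depended on the window: it was 10 in gene bodies alone and 146 with 100 kb on either end, against 42. It was 35 with 5 kb ends, 45 in the conservative list, 32 in the mm9 list and 46 to 50 in single replicates. Genes with a summit within 1 kb of the start numbered 6, but 3 within 500 bp, 7 within 2500 bp and 8 in either replicate alone. The share over all genes, 31.9%, is for 1 kb in the optimal list only. With windows of 100 bp either side, 3 of the 32 mm9 summits held a composite or AP-1 motif in place of 1, and with 25 bp 1 did. The motif share over all mm9 summits was not taken at 100 bp or 25 bp, so neither count has a share beside it. Summits matched in both replicates numbered 23 within 50 bp and 39 within 200 bp, against 34. The median log2 ratio stayed between 0.50 and 0.53. Other bZIP genes with a summit numbered 14 to 15 over the lists tried, and kinases 14 in each. Leaving out summits within 1 kb of another gene's start left 38, and counting those up to 340 bp apart once gave 37; both were added after seeing the data. No paired analysis was possible because there is 1 group. Unknown depth limits what the absence of a summit shows.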
